A study of Schizosaccharomyces pombe with 2 samples.

Results

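The belts studied here are the stretches of chromosomes I and II of fission yeast (Schizosaccharomyces pombe) that lie 100 to 200 kb inwards from the chromosome ends, where the subtelomere gives way to the chromosome arm. Members were chosen by position alone, from the chromosome and position in each probe name, in 5 intervals: tiles at 100000 to 199999 and at 5374900 to 5474899 of chromosome I, and at 103000 to 145099, 170000 to 199999 and 4310800 to 4410799 of chromosome II. They hold 1237 of the 41240 usable chromosome tiles, namely 333 in the left and 332 in the right belt of chromosome I, and 239 in the left and 333 in the right belt of chromosome II. All 1237 entered every count below. Each tile is 300 bp of the numbering used by the array, and distances are counted from the end of the tiling. The stretch of chromosome II between its 2 left intervals is outside the rule and is given only as a neighbour. Regions that cross a border of the rule are given in full.

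Nascent DNA was labelled with the thymidine analogue BrdU, immunoprecipitated and hybridised against whole-cell extract DNA on 2 arrays, 1 for the strain called wild-type and 1 for sap1-1. Both strains were of the 972h background and carried cdc10-v50, a temperature-sensitive allele of a G1/S transcription factor subunit, with the thymidine kinase module Pnmt1-TK and the nucleoside transporter module Padh1-hENT. The sap1-1 strain also carried the sap1-1 allele. Both cultures were arrested at 35 °C for 4 h and released at 26 °C into 10 mM hydroxyurea and 200 µM BrdU, and sodium azide (0.1%) served as the fixative. The value of a tile is log2 of immunoprecipitated (Cy5) over input (Cy3) signal, centred on the median of its array, so that 0 is the typical tile of that array and 1 is 2-fold above it. With 1 array per strain there is no replicate and no test. Every SD or SE below is taken over tiles, which are neighbours on 1 array, and a difference between the strains cannot be told apart from a difference between cultures, immunoprecipitations or arrays.

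Hydroxyurea starves cells of deoxynucleotides, so that forks stay close to the origins they left and BrdU marks the origins that fired. Fission yeast origins are AT-rich stretches, mostly between genes, to which the origin recognition complex binds through the AT-hooks of its Orc4 subunit, with no consensus sequence. Origins near telomeres are known to be held late by the shelterin protein Taz1 and by Rif1. The essential protein Sap1 binds DNA, with known sites at the mating-type locus, at the fork barrier of the rDNA and in LTRs.

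The sequences below come from intergenic DNA at or next to the highest summit of the wild-type regions centred in each belt. A higher peak on the inner border of the left belt of chromosome I belongs to a wild-type region centred outside it. Intergenic DNA next to BrdU-poor stretches of the left belts is given for comparison. Each sequence is the 300 bases of lowest GC content between the annotated transcripts of a pair of neighbouring protein-coding genes. All are from the plus strand of the RefSeq assembly ASM294v3. The coordinates that follow are those of ASM294v3, which differ from the numbering of the tiles. Tiles were placed on the genes to within about 1 tile, so a stretch stands for the interval between its genes and not for the exact tile. Capitals mark runs of at least 6 A or 6 T (AAAAAA or TTTTTT read on the plus strand, which is the same search on the minus strand). The summits are represented by chrI:113397-113696 (left belt of I), chrI:5448396-5448695 (right belt of I), chrII:110082-110381 (left belt of II) and chrII:4360242-4360541 (right belt of II, where the summit tile lay 113 bp from the interval). The BrdU-poor neighbours are chrI:155625-155924 (left belt of I, 642 bp from the lowest tile) and chrII:174316-174615 (left belt of II, 196 bp from it).
Summit between SPAC11D3.04c and mfs2: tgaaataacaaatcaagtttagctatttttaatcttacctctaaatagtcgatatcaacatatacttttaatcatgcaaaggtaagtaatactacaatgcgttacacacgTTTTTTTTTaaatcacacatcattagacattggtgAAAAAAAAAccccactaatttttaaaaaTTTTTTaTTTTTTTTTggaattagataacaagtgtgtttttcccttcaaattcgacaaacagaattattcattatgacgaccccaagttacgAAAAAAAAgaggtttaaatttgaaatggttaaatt
Summit between SPAC1039.01 and SPAC1039.02: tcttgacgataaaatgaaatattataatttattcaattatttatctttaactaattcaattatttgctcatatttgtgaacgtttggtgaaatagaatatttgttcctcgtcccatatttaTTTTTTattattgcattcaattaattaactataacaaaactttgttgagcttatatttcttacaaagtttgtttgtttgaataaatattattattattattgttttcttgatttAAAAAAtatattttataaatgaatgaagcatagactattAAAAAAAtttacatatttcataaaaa
Summit between alr2 and aat1: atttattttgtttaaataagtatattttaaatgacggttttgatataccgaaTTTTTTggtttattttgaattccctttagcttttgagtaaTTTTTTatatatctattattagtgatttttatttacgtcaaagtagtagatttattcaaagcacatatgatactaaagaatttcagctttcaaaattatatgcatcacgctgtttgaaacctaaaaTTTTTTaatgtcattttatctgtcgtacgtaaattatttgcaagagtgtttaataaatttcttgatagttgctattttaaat
Summit between utp6 and sid4: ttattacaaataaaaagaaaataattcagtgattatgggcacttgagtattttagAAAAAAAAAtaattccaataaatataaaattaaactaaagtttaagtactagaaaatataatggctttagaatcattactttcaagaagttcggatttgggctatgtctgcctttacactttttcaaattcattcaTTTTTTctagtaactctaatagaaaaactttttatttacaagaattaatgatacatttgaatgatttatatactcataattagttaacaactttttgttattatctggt
BrdU-poor, between SPAC5H10.04 and adh4: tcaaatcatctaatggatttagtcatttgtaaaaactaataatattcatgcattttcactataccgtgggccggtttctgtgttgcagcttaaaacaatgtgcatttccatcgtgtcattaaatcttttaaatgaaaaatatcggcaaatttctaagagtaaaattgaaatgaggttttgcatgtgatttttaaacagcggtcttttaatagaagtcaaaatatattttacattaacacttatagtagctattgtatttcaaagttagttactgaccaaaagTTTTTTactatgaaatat
BrdU-poor, between fmd2 and dea2: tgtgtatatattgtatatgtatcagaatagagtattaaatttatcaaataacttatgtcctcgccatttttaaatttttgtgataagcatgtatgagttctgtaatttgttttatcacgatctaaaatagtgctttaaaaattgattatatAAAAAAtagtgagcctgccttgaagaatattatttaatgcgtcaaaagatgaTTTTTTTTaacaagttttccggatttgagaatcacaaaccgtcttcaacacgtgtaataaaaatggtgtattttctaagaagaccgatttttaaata
The summit stretches were 74.0%, 81.7%, 77.3% and 77.7% A or T, in the order printed, and held 5, 3, 3 and 2 such runs. The BrdU-poor stretches were 72.0% and 73.7% A or T and held 1 and 2 runs. The stretches found in the same way for the right belts, not printed because they lay 3146 and 1160 bp from the lowest tile, were 74.7% A or T with 1 run (chromosome I) and 72.3% with 0 runs (chromosome II). The A or T content of summit and BrdU-poor stretches thus overlapped. Such a run is common, since 80.4% of the 2317 stretches chosen in the same way across the reference held at least 1, as did 55.2% of all 41905 consecutive windows of 300 bases. The median over the 2317 stretches was 73.0% A or T, with quartiles of 70.7% and 75.7%.

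Across the whole of the belts, BrdU signal was that of an average stretch of the genome and slightly lower in sap1-1. Their tiles had a median of 0.01 on the wild-type array (quartiles -0.88 and 0.98) and of -0.14 on the sap1-1 array (quartiles -1.11 and 0.88). The median difference, sap1-1 minus wild-type, was -0.21, and the tiles had a mean difference of -0.22 ± 0.96 (SD, n = 1237 tiles). Lower values in sap1-1 were found at 735 of the 1237 tiles, or 59.4%. Over all 41240 tiles the median difference was -0.12 and 55.8% were lower, so the belts stood close to the genome as a whole. At least 2-fold lower were 236 belt tiles (19.1%), against 17.1% of all tiles, and at least 2-fold higher were 113 (9.14%), against 10.3% of all tiles.

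The belts lay between 2 unlike neighbours. The outer 100 kb of chromosomes I and II had medians of 1.77 in wild-type against 0.81 in sap1-1, and 93.7% of its tiles were lower in sap1-1, with a median difference of -0.94. From 200 to 300 kb inwards the medians were -0.52 and -0.45, with a difference of -0.12 and 53.8% of tiles lower. Of the arms beyond 200 kb, 54.8% of tiles were lower, with a median difference of -0.10. The share of the belts that lay inside BrdU-enriched regions was 22.2% on the wild-type array and 17.9% on the sap1-1 array, close to the 23.8% and 19.0% of all tiles. In the outer 100 kb the shares were 89.4% and 37.0%. Repeated sequence was rare in the belts, with 0.81% of tiles having at least 10% of their 30-base words elsewhere in the reference, against 30.7% in the outer 100 kb.

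**Figure D1:**
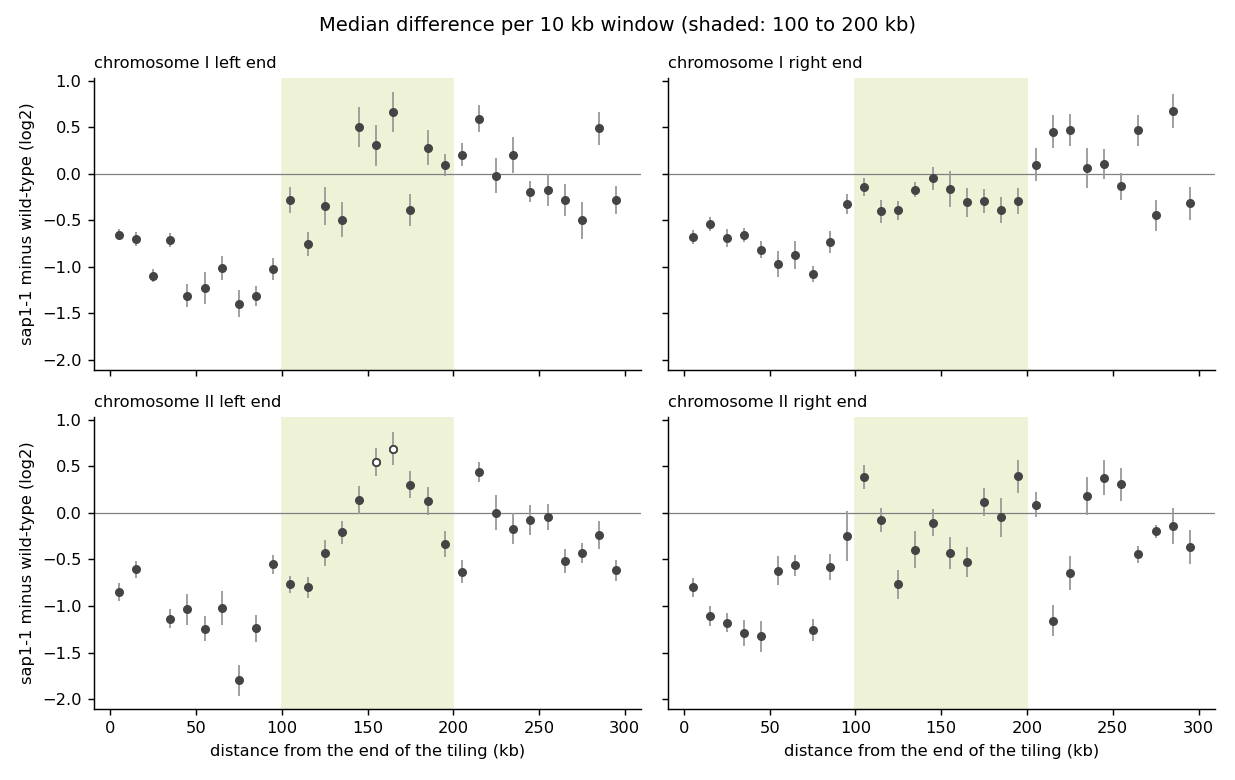
Median difference between sap1-1 and wild-type (log2) in 10 kb windows against the distance from each end of the tiling. The bars are the SE of the mean difference over tiles. Filled points inside the shaded 100 to 200 kb are the 38 windows of the belts, and open points are the stretch outside the rule. All 39 windows of the outer 100 kb lay below 0, while those of the belts ran from -0.80 to 0.66.

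The 4 belts differed from each other more than the average over them shows. The right belt of chromosome I had medians of 0.68 in wild-type against 0.32 in sap1-1, and 68.1% of its tiles were lower in sap1-1 (median difference -0.30). The left belt of chromosome II had medians of 0.87 and 0.43, with 63.2% lower (median difference -0.31). The left belt of chromosome I was near the average of the array, at -0.13 and -0.20, and 52.3% of its tiles were lower (median difference -0.06). The right belt of chromosome II was the poorest in BrdU, at -0.59 and -0.74, with 55.3% lower (median difference -0.12). The small differences of the last 2 belts did not keep their sign. The left belt of chromosome I came out at 0.04 after within-array loess, 0.08 after quantile scaling and 0.01 after normexp correction, and the right belt of chromosome II at 0.02 after quantile scaling. The belts on the other 2 ends stayed below 0 under all 11 settings. The median difference of the input (Cy3) channel was between 0.00 and 0.02 in each belt and between -0.09 and 0.12 in the single 10 kb windows of the belts.

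In 10 kb windows, 27 of the 38 belt windows were lower in sap1-1 by the median of their tile differences. These were 5 of 10 in the left and 10 of 10 in the right belt of chromosome I, and 5 of 8 in the left and 7 of 10 in the right belt of chromosome II. The 10 windows of the right belt of chromosome I ranged from -0.40 to -0.05. In the left belt of chromosome I the 4 outermost windows, from 100 to 140 kb, were lower by medians of -0.28, -0.75, -0.35 and -0.49. The 3 that followed, from 140 to 170 kb, were higher by medians of 0.50, 0.30 and 0.66. Their mean differences were 0.25 ± 0.21, 0.41 ± 0.22 and 0.76 ± 0.22 (SE over tiles). In those 3 windows the wild-type medians were -0.52, -1.19 and -1.63, and those of sap1-1 were 0.09, -0.42 and -0.76.

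In the left belt of chromosome II the difference changed sign more than once along its length. Its outermost windows had differences of -0.77 and -0.80, with wild-type medians of 1.83 and 2.40. The next 3 had -0.43, -0.21 and 0.14, the last with a mean difference of -0.10 and ending at the border of the rule. The stretch outside the rule that follows had medians of 0.03 in wild-type against 0.66 in sap1-1, and a median difference of 0.47. Past it the differences were 0.30, 0.12 and -0.34. In the right belt of chromosome II the outermost window was higher, at 0.39, the 5 from 120 to 170 kb were lower, at -0.77 to -0.11, and the innermost was again at 0.39. Except in the right belt of chromosome I, each belt thus held windows of both signs.

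The outer part of the belts carried more BrdU than the inner part on both arrays. From 100 to 150 kb the medians were 0.68 in wild-type against 0.38 in sap1-1, with a difference of -0.29. From 150 to 200 kb they were -0.72 and -0.75, with a difference of -0.08. The more negative difference of the outer part was found in only 2 of the belts. It was -0.27 in the outer and 0.18 in the inner part of the left belt of chromosome I, and -0.48 and 0.01 in the left belt of chromosome II. In the right belts it was -0.28 and -0.31 (chromosome I) and -0.11 and -0.21 (chromosome II). The outer part thus stood above the inner part by 1.40 in wild-type and 1.13 in sap1-1. At the 100 kb border of the left belt of chromosome I, where the rule cuts through continuous tiling, the 5 tiles just inside had means of 0.87 in wild-type against 0.25 in sap1-1, and the 5 just outside had 0.84 and -0.48. At the 200 kb border of the same belt, the 5 tiles inside had means of 2.08 and 1.86, and the 5 outside had 1.76 and 1.38.

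**Figure D2:**
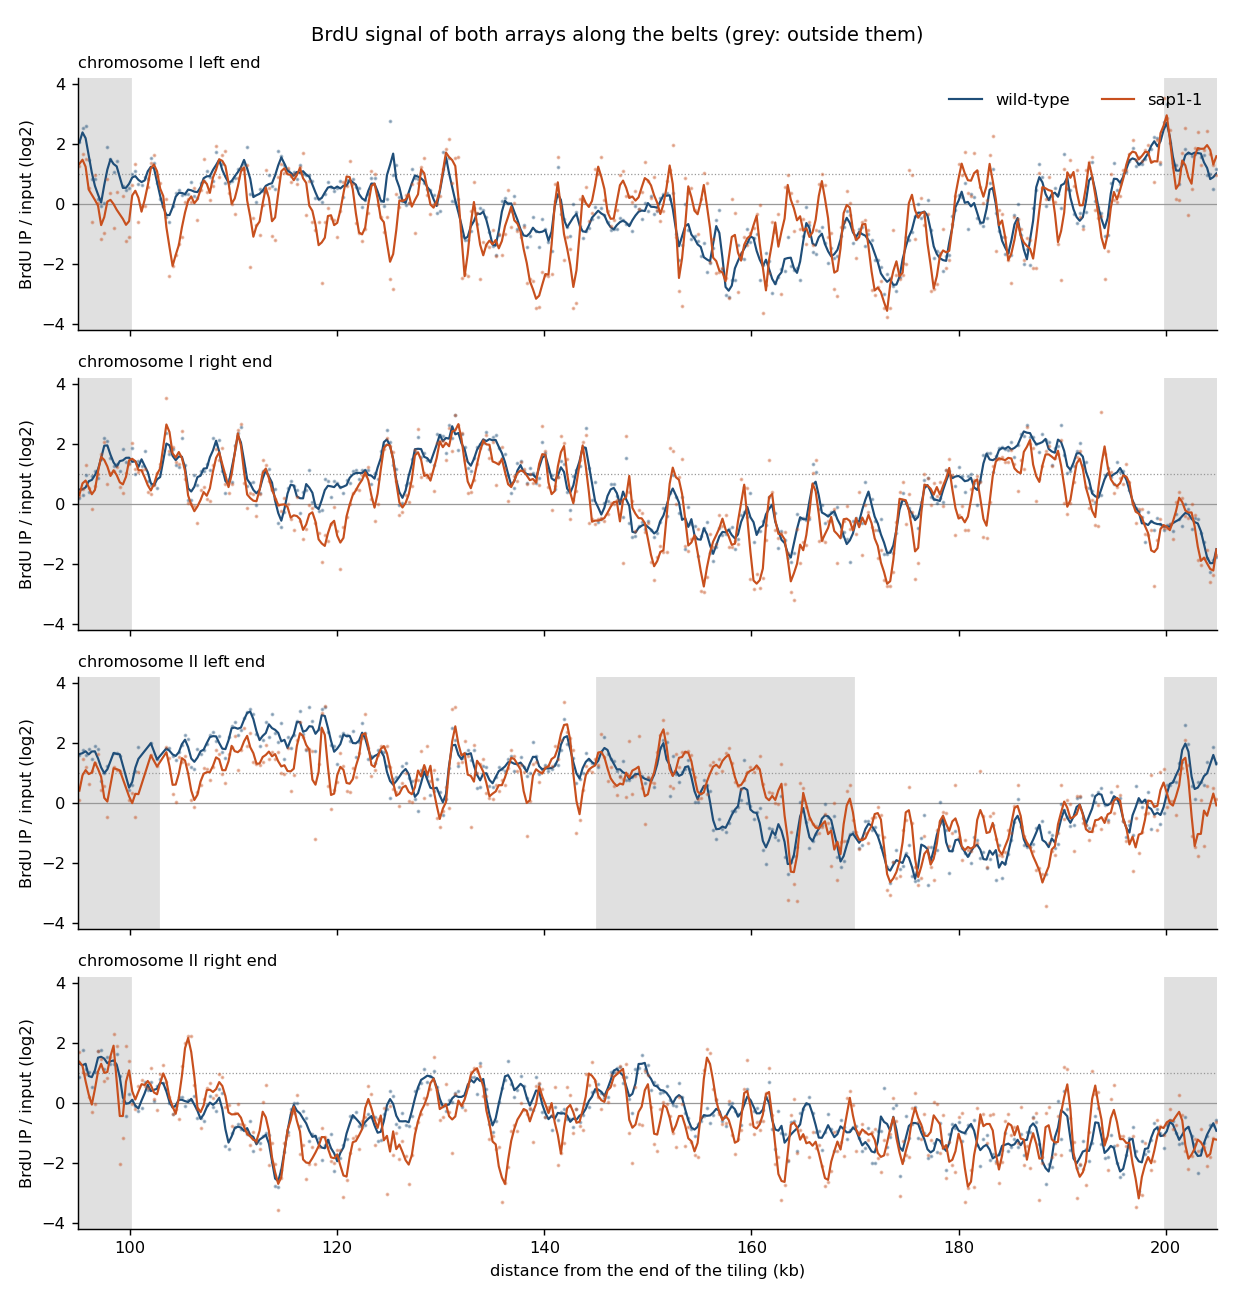
BrdU immunoprecipitate over input (log2) of both arrays along each belt, with points for single tiles and lines for the mean of tiles within 500 bp either side. The dotted line is 1, the threshold of a region, and grey marks tiles outside the belts. The left belt of chromosome II reached 3.06 in wild-type, whereas the line of the right belt of the same chromosome did not pass 1.33 in wild-type and 2.16 in sap1-1.

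Differences between the strains went with the wild-type level. Of the 15 belt windows whose wild-type median reached 0.5, 13 were lower in sap1-1, with a median difference of -0.35. On the arms beyond 200 kb, 221 of 268 windows at that level were lower, with a median difference of -0.32. In the outer 100 kb all 39 windows were at that level and all were lower, with a median difference of -0.97, but their median wild-type level was also higher, at 1.77 against 1.19 in these belt windows. Of the 13 belt windows with a wild-type median below -0.5, 6 were lower, and their median difference was 0.11. The arms had 121 of 336 such windows lower and the same median of 0.11. The wild-type value enters both the level and the difference. Across the 38 belt windows the levels of the arrays followed each other (r = 0.93, with both arrays on 1 slide and the same tiles).

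**Figure D3:**
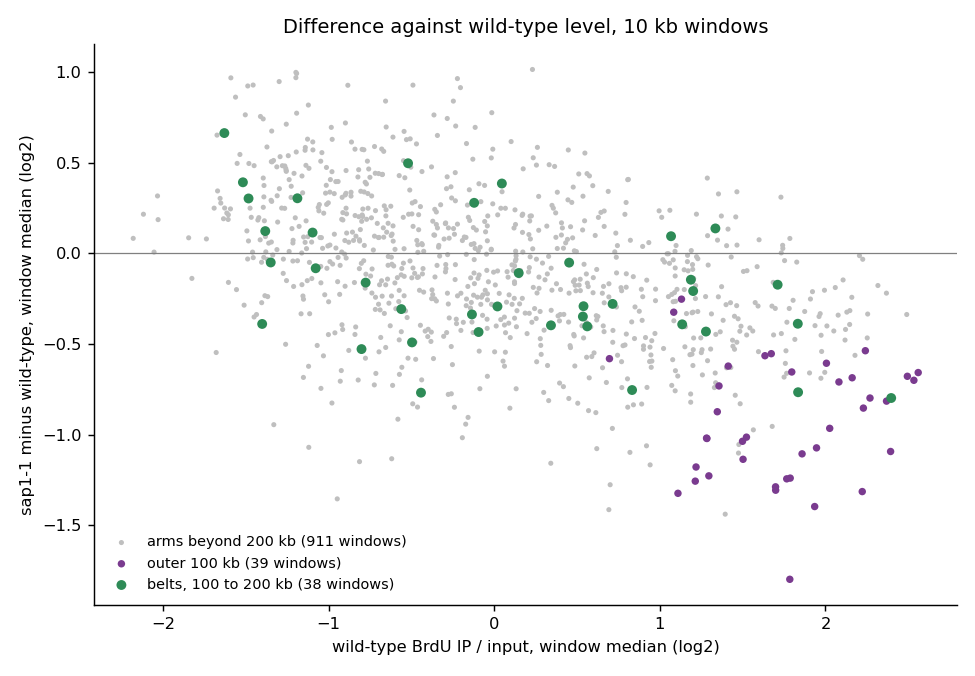
Difference between sap1-1 and wild-type against the wild-type level, both as medians of 10 kb windows (log2). The 38 windows of the belts lay among the 911 windows of the arms. The belt windows at 0.5 or more ran from -0.80 to 0.14 and overlapped with the 39 windows of the outer 100 kb, which ran from -1.80 to -0.25.

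BrdU-enriched regions, defined as at least 3 neighbouring tiles whose smoothed value reached 1, numbered 17 in wild-type and 21 in sap1-1 within the belts. Only regions centred in the belts were counted. Their full lengths, with parts outside the rule included, came to 82.5 kb on the wild-type array and 68.7 kb on the sap1-1 array. Of the wild-type regions 13 overlapped a region of sap1-1, and of the sap1-1 regions 18 overlapped one of wild-type. Over all chromosomes 361 of 472 wild-type and 502 of 681 sap1-1 regions did so. More and shorter regions in sap1-1 were thus found across the genome, with a median length of 1.8 kb against 2.7 kb in wild-type. In the belts the median length was 2.1 kb on both arrays. The 4 belts held 4, 8, 3 and 2 regions in wild-type and 5, 9, 6 and 1 in sap1-1, in the order I left, I right, II left and II right. At least 5 kb long were 4 wild-type and 3 sap1-1 regions. Joined into 19 union regions centred in the belts, 12 were called on both arrays, 4 on wild-type only and 3 on sap1-1 only. The mean over the region was lower in sap1-1 at 12 of the 19, with a median difference of -0.18. At least 2-fold lower was 1 of the 19 regions, against 6.43% of the 638 union regions of all chromosomes, and at least 2-fold higher were 2 of the 19, against 11.8%. These 3 regions had 3 tiles each.

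The longest region, and the highest in wild-type, lay at the outer edge of the left belt of chromosome II, from 100500 to 125399, and began outside the rule. It holds a run of genes for the handling of amino acids and for the cell surface. The smoothed wild-type signal peaked at 3.06 between alr2, which encodes alanine racemase, and aat1, an amino acid permease gene. In sap1-1 the peak was 2.53 between aat1 and pfl7, a gene for a DIPSY family glycoprotein of the cell surface. Over the 77 tiles the mean was 2.10 ± 0.57 (SD) in wild-type and 1.34 ± 0.79 in sap1-1. The difference was -0.76 ± 0.08 (SE), and 68 of the 77 tiles were lower. Where wild-type had a single region of 24.6 kb, sap1-1 had 3 shorter ones, of which the longest spanned 12 kb. The difference stayed below 0 under every setting, at -0.39 with loess in place of none.

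The other regions of the left belt of chromosome II did not differ in this way. Between mug14, annotated as an adducin of the actin cytoskeleton, and pho841, an inorganic phosphate transporter gene, the smoothed peak reached 1.95 in wild-type and 2.57 in sap1-1. The region around it (130800 to 134399) averaged 1.46 on both arrays, a difference of 0.00 ± 0.27 (SE, 12 tiles). Between amf1, a transporter gene, and SPBC1683.04, a glycosyl hydrolase gene, the peak reached 2.24 in wild-type and 2.64 in sap1-1, the highest of sap1-1 in this belt. The wider region there (135600 to 147899), which runs past the border of the rule, averaged 1.39 and 1.11, a difference of -0.28 ± 0.09. Of its 41 tiles 32 lay in the belt, and 27 of the 41 were lower. At this site the peak was higher in sap1-1 while most tiles around it were lower.

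In the right belt of chromosome I the highest peak lay between SPAC1039.01, an amino acid permease gene, and SPAC1039.02, a phosphatase gene, at 2.59 in wild-type and 2.66 in sap1-1. The region (5436900 to 5447999) averaged 1.75 ± 0.56 (SD) and 1.44 ± 0.74, a difference of -0.30 ± 0.08 (SE, 27 of 37 tiles lower). The most negative difference of this belt among regions of at least 5 tiles was at 5382600 to 5392799. There the mean went from 1.82 ± 0.41 in wild-type to 1.09 ± 0.88 in sap1-1, a difference of -0.73 ± 0.13, and 33 of the 34 tiles were lower. Its wild-type peak of 2.41 lay between SPAC3G6.07 and erv1, which encodes a sulfhydryl oxidase, and the sap1-1 peak was 2.13 at SPAC3G6.07. The gene of the flap endonuclease Rad2, which lies in this region and was named after its values were seen, had means of 1.94 in wild-type and 1.57 in sap1-1.

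The smaller regions of the same belt were mixed, and only some had like peaks on both arrays with a lower mean in sap1-1. Between isp5, an amino acid transporter gene, and mmf2 the peak was 2.30 in wild-type and 2.35 in sap1-1, and the region (5463900 to 5468099) had a mean difference of -0.31 ± 0.15 (SE, 10 of 14 tiles lower). Between pgt1, a glutathione transporter gene, and SPAC29B12.11c the peak was 1.89 and 1.95, and the mean difference -0.12 ± 0.18 (9 of 17 tiles lower). Between gto1, an alpha-glucosidase gene, and SPAC922.03 it was 2.01 and 2.65, and that region (5469600 to 5472299) had the most positive difference of the longer regions in this belt, 0.18 ± 0.16 (8 tiles). At SPAC1039.04, a carboxylic acid transporter gene, the peak was 2.15 and 1.98, and the mean difference -0.34 ± 0.14 (11 of 13 tiles lower). At ifs1 a region of 3 tiles (5379000 to 5379899) was called in wild-type alone, with means of 1.2 and 0.69. Next to ifs1, a 3-tile region between ifs1 and rnp24 (5380500 to 5381399) was above 2-fold, with 0.82 in wild-type against 1.92 in sap1-1, a difference of 1.09 ± 0.87.

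The left belt of chromosome I had short regions, none of them as long as 5 kb, and those away from its inner border were low. Among the wild-type regions centred in it the highest peak, 1.57, lay between SPAC11D3.04c, a polyketide cyclase gene, and mfs2, a transporter gene of the major facilitator family. That region (114300 to 116999) averaged 1.22 in wild-type against 1.10 in sap1-1, a difference of -0.12 ± 0.13 (9 tiles). A region called in sap1-1 alone (130200 to 131699) peaked at 1.73 between SPAC11D3.11c, a gene for a truncated zinc-cluster protein, and hsp3104, a glyoxylase gene. The wild-type peak at the same tile was 1.58, and the means were 0.98 and 1.49, a difference of 0.51 ± 0.33 (5 tiles). The highest peak of the belt on both arrays stood on its inner border, in a region from 196200 to 200999 with a smoothed value of 2.62 in sap1-1 and 2.48 in wild-type near chs1, a chitin synthase gene. The means of that region were 1.80 in wild-type and 1.82 in sap1-1. The gene chs1 itself averaged 1.67 and 1.62.

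The right belt of chromosome II had 3 short regions of 3 tiles. At utp6, which encodes a protein of the U3 small nucleolar ribonucleoprotein, wild-type peaked at 1.33 and sap1-1 at 0.42 (4361100 to 4361999). The means were 1.30 ± 0.26 (SD) and -0.12 ± 1.02, a difference of -1.43 ± 0.68 (SE). Next to it at sid4, a scaffold gene of the septation initiation network, the means were 1.13 and 0.95. Among the union regions of the belts the strains were furthest apart between adn2, a transcription factor gene, and spf38, a splicing factor gene (4404900 to 4405799). There the mean was 0.03 ± 0.11 (SD) in wild-type against 2.16 ± 0.14 in sap1-1, a difference of 2.14 ± 0.02 (SE). The input of these 3 tiles was higher in sap1-1 by 0.54, and with the mean input of both arrays as denominator the difference was 2.69. Outside the regions, the 2 tiles of acb1, an acyl-coenzyme A binding protein gene named after its values were seen, averaged 0.63 in wild-type against -2.99 in sap1-1.

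**Figure D4:**
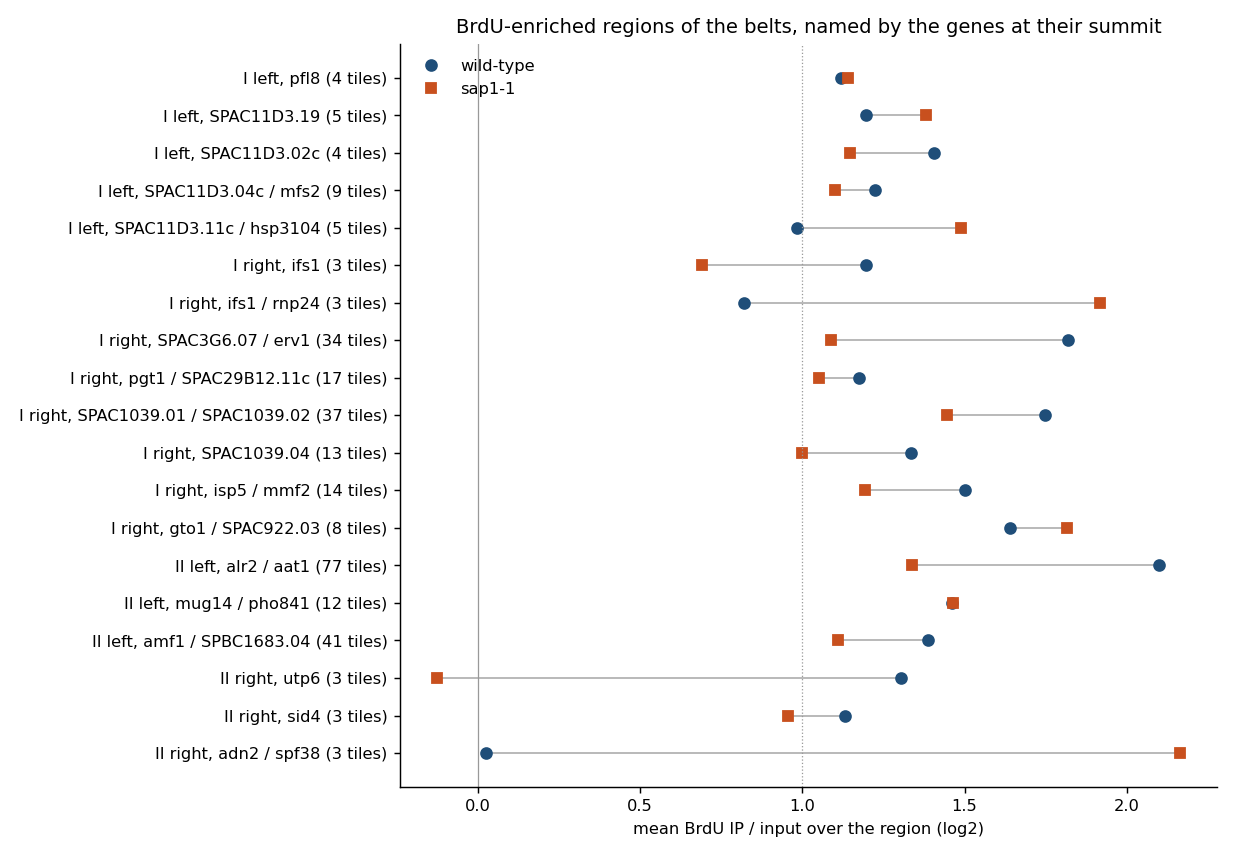
Mean BrdU immunoprecipitate over input (log2) of the 19 union regions of the belts on the wild-type array (circles) and the sap1-1 array (squares), each named by the genes at its summit. The dotted line marks 1. The region of 77 tiles at alr2 and aat1 went from 2.10 to 1.34, and the 3 pairs furthest apart were short regions of 3 tiles.

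BrdU-poor stretches were taken as runs in which both arrays had smoothed values below 0, so each is shared by construction. Such values were found at 542 of the 1237 tiles, or 43.8%, against 41.8% of all chromosome tiles. Below 0 in wild-type alone were 79 belt tiles and in sap1-1 alone 137. Over all 41240 tiles these counts were 3655 and 4285, so the excess in sap1-1 was not confined to the belts. The share below 0 on both arrays was 67.6% in the right belt of chromosome II and 28.6% in the right belt of chromosome I. Within the rule the longest such run lay in the right belt of chromosome II, from 4320900 to 4341299. It spanned 20.4 kb around vps1302, a lipid transfer protein gene. Its means were -1.22 in wild-type against -1.23 in sap1-1, and 33 of its 68 tiles were lower. The longest run of the left belt of chromosome II spanned 20.1 kb (170100 to 190199), with means of -1.43 and -1.24 and a difference of 0.19 ± 0.10 (SE, 67 tiles). That run began at the first tile of its interval, so its length is only the part inside the rule. The 5 tiles just outside averaged -1.45 in wild-type and -0.41 in sap1-1. The lowest wild-type value of the run, -2.52, was at dea2, an adenine deaminase gene. The longest run of the right belt of chromosome I (5416200 to 5421599) lay within sec16, which encodes a vesicle coat protein, at -1.07 and -1.39.

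In the left belt of chromosome I 2 runs of 7.8 kb were the longest, and they differed in sign. In the outer one (155700 to 163499) the means were -1.90 in wild-type against -1.41 in sap1-1, a difference of 0.49 ± 0.30 (SE, 26 tiles, 9 of them lower). In the inner one (167400 to 175199) they were -1.60 and -1.78, a difference of -0.18 ± 0.17 (14 of 26 tiles lower). The lowest wild-type value of the outer run, -2.88, was at adh4, an alcohol dehydrogenase gene. The gene adh4 averaged -2.66 ± 0.39 (SD) in wild-type and -1.56 ± 1.43 in sap1-1. In the inner run, rad8, a ubiquitin ligase gene of post-replication repair named after its values were seen, averaged -2.00 and -2.26, a difference of -0.26 ± 0.31.

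Of the 155 protein-coding genes of the belts, 136 had at least 3 tiles. The mean over the gene was lower in sap1-1 for 86 of them, with a median difference of -0.22, against 2744 of 4608 genes and -0.14 over all chromosomes. At least 2-fold lower were 13 of the 136 genes, against 8.81% of the 4608, and at least 2-fold higher were 7, against 2.97%. These counts moved with the scaling, to 1 lower and 5 higher after loess, 5 and 11 after quantile scaling, and 45 and 0 when the arrays were centred on the mode. In the right belt of chromosome I 26 of 29 genes were lower, with a median difference of -0.46. In the other belts 24 of 41 (I left), 14 of 26 (II left) and 22 of 40 (II right) were lower.

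The 7 genes at least 2-fold higher lay in BrdU-poor or average DNA, and 6 of them were in the left belt of chromosome I. They included SPAC5H10.04, an NADPH dehydrogenase gene, which averaged -1.52 ± 0.47 (SD) in wild-type against -0.09 ± 1.04 in sap1-1, a difference of 1.44 ± 0.41 (SE, 7 tiles). All 7 of these tiles are also among the 8 tiles of SPAC5H10.05c, an oxidoreductase gene on the other strand (1.41 ± 0.36), so that the count of 7 holds these tiles in 2 genes. Nearby, SPAC5H10.10, another NADPH dehydrogenase gene, had a difference of 1.17 ± 0.55 and adh4 one of 1.10 ± 0.57. The others were hsp3104 (1.16 ± 0.28), trs33, a gene of the TRAPP vesicle tethering complex (1.04 ± 0.22), and, in the right belt of chromosome II, las1, an endonuclease gene of pre-rRNA processing (1.14 ± 0.39).

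The 13 genes at least 2-fold lower were spread over all 4 belts, with 6 in the left belt of chromosome I. The lowest was rps601, a gene of ribosomal protein S6, at 0.65 ± 0.62 (SD) in wild-type against -0.67 ± 1.69 in sap1-1, a difference of -1.32 ± 0.58 (SE, 4 tiles). SPAC11D3.04c had a difference of -1.27 ± 0.41 and its neighbour SPAC11D3.03c one of -1.03 ± 0.26. The right belt of chromosome II had chr4, a regulator of glucan synthesis, at -1.22 ± 0.19, and rpt1, a proteasome subunit gene, at -1.04 ± 0.32. In the right belt of chromosome I the 3 were SPAC3G6.05, an Mpv17 family gene (-1.02 ± 0.22), SPAC1039.06, a D-serine ammonia-lyase gene (-1.05 ± 0.27), and SPAC1039.07c, a transaminase gene (-1.0 ± 0.25).

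Genes of transporters and permeases, which move nutrients and ions over membranes, lay mostly, but not all, in BrdU-rich DNA of the belts. Of 16 such genes 15 had at least 3 tiles, of which 13 were above 0 in wild-type and 10 in sap1-1, with a median of 1.05 in wild-type and 0.80 in sap1-1, against 0.31 and 0.28 for the 190 such genes of all chromosomes. The mean was lower in sap1-1 for 11 of the 15, and the median difference was -0.37, which stayed below 0 under every setting (-0.91 to -0.21). Over all 190 it was 0.00, with 94 lower. At least 2-fold lower were 2 of the 15 and 2-fold higher 0, against 10 and 3 of the 190. The count of 2 became 0 after loess, 1 after quantile scaling or over the mean input, 3 after normexp and 6 when centred on the mode.

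The gene richest in BrdU among them in wild-type was aat1, an amino acid permease gene of the left belt of chromosome II. It averaged 2.45 ± 0.40 (SD) in wild-type against 1.5 ± 0.23 in sap1-1, a difference of -0.94 ± 0.12 (SE, 8 tiles). SPBC359.01, an amino acid permease gene of the same belt, averaged 1.82 ± 0.44 and 0.73 ± 0.53, a difference of -1.08 ± 0.10 (9 tiles). The neighbouring alr2 averaged 2.17 and 1.51. Farther inwards the ABC transporter gene abc3 (0.97 on both arrays), pho841 (1.13 and 0.80) and amf1 (1.22 and 1.26) had differences of 0.01, -0.33 and 0.04. The nicotinic acid transporter gene SPBC1683.12, beyond the stretch left out, was poor on both arrays (-1.31 and -1.21).

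In the left belt of chromosome I, SPAC11D3.06, a gene of the MatE transporter family, averaged 0.44 ± 0.36 (SD) in wild-type against -0.74 ± 1.09 in sap1-1, a difference of -1.18 ± 0.35 (SE, 6 tiles). The amino acid permease gene SPAC11D3.08c averaged 0.45 and -0.25, and mfs2 1.10 and 0.99. SPAC11D3.18c, a carboxylic acid transporter gene farther inwards, was higher in sap1-1 by 0.40 ± 0.08. The input of this gene was lower in sap1-1 by 0.27, and over the settings run the difference ranged from -0.14 to 0.46. In the right belt of chromosome I all 5 transporter genes were lower, by -0.16 (the purine transporter gene SPAC29B12.14c) to -0.54 (pgt1). The others were SPAC1039.01 (1.82 and 1.45), SPAC1039.04 (1.40 and 0.92) and isp5 (0.59 and 0.20).

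**Figure D5:**
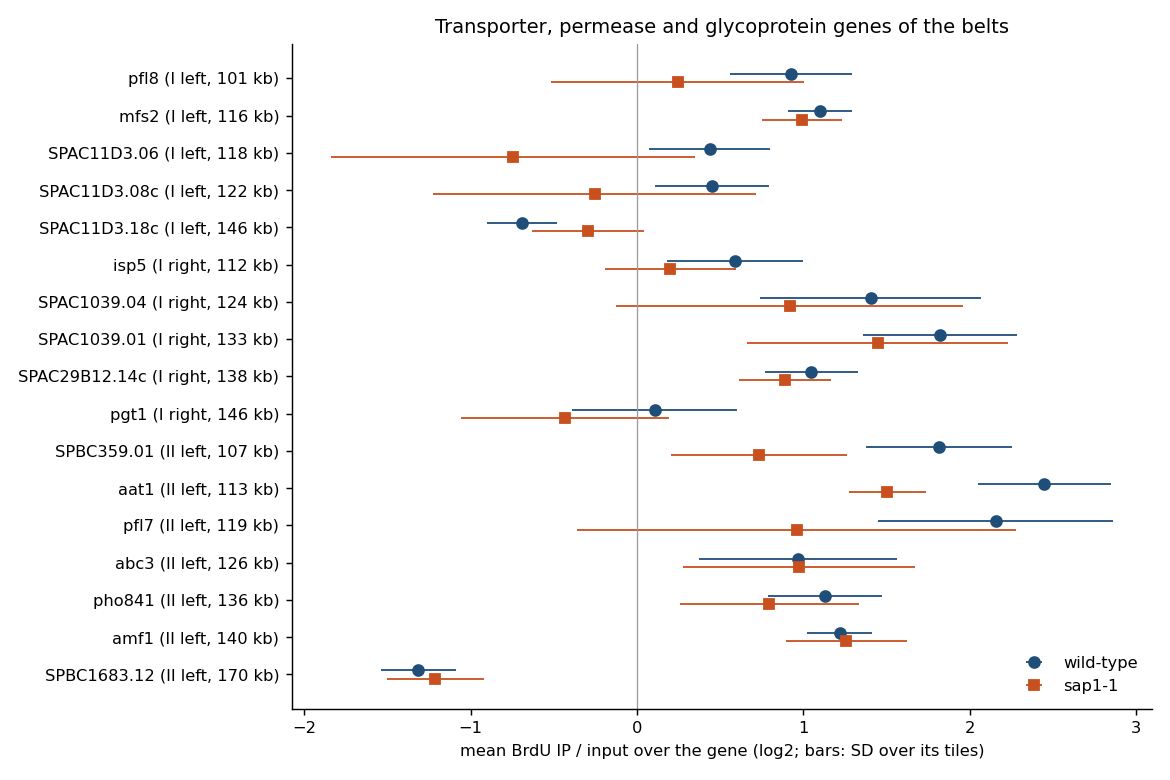
Mean BrdU immunoprecipitate over input (log2) of the transporter, permease and cell surface glycoprotein genes of the belts with at least 3 tiles, in wild-type (circles) and sap1-1 (squares), with bars for the SD over the tiles of the gene and the distance from the end beside each name. The pairs furthest apart are pfl7 and SPAC11D3.06, and SPBC1683.12 is below -1 on both arrays.

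Other classes had few members. Both cell surface glycoprotein genes were lower, with pfl8 at 0.92 ± 0.36 (SD) in wild-type against 0.24 ± 0.76 in sap1-1, and pfl7 at 2.16 ± 0.71 and 0.96 ± 1.32. The difference was -0.68 ± 0.21 (SE) for pfl8 and -1.20 ± 0.40 for pfl7, with 5 tiles each. Over all chromosomes 12 of 14 such genes were lower, with a median difference of -0.73. The 2 ribosomal protein genes with a value were rps601, above, and rps101 at -0.28 and -0.45. Lower values were found at 44 of the 58 ribosomal protein genes of all chromosomes. No gene whose product text names replication, a telomere, a checkpoint, ORC or MCM lay in the belts.

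Short features were measured with 500 bp on either side. Of 4 LTRs, remnants of retrotransposons and known sites of Sap1 binding, 3 had tiles within this span. They had a median of 1.01 in wild-type against 0.63 in sap1-1, with differences of -0.38 to 0.05. The wild-type median is the value of 1 flanking tile. Only the LTR at 107100 to 107400 of chromosome I had tiles of its own. Those 2 tiles averaged 0.95 in wild-type and 0.96 in sap1-1. The tRNA gene SPATRNASER.04, in the right belt of chromosome I, had 1.22 and 1.73, and its own tile was likewise higher in sap1-1 (1.44 and 2.26). The tRNA gene SPBTRNAGLY.03, in the left belt of chromosome II, had -1.38 and -0.55, but its own tile was lower in sap1-1 (-1.21 and -1.32). The 5S rRNA gene SPRRNA.10 had -0.12 and 0.42. The snoRNA genes snR97 (-1.36 and -1.81) and snoR69 (1.62 and 1.27) were lower. Of 95 long non-coding RNA genes with at least 3 tiles 60 were lower, with a median difference of -0.19. This was close to the belts as a whole, where 59.4% of tiles were lower with a median difference of -0.21. Of the protein-coding genes of all chromosomes 59.5% were lower.

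BrdU in the belts favoured intergenic DNA on both arrays. The 493 intergenic tiles had medians of 0.48 in wild-type against 0.54 in sap1-1, and the 744 coding tiles had -0.35 and -0.47. The gap of 0.83 in wild-type and 1.01 in sap1-1 shrank to 0.31 and 0.32 once the ratio was corrected for GC content. Intergenic tiles were poorer in GC, with a median of 31.7% against 39.0% in coding tiles. On the arms beyond 200 kb the medians were 0.35 and 0.44 for intergenic tiles and -0.36 and -0.40 for coding tiles. Between divergent genes the belt medians were 0.35 (wild-type) and 0.42 (sap1-1), between tandem genes 0.55 and 0.51, and between convergent genes 0.61 and 0.88. Over the belts together all 3 kinds were lower in sap1-1 by the median of tile differences, at -0.30, -0.19 and -0.14. In the left belt of chromosome I all 3 were higher, at 0.03, 0.01 and 0.33. On the arms beyond 200 kb these differences were -0.01, -0.002 and -0.05.

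The sap1-1 profile was also rougher. The difference between neighbouring belt tiles had an SD of 0.60 in wild-type against 1.03 in sap1-1, and the same held over all tiles, at 0.60 and 1.02. Over the tiles of the belts the arrays followed each other with r = 0.74 (n = 1237 tiles of 1 slide that share neighbours and base composition), from 0.54 in the right belt of chromosome II to 0.84 in the left belt of chromosome II. In the belts no tile of wild-type and 3 tiles of sap1-1 were not well above background.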

How the data were processed

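BrdU immunoprecipitate and input of 1 culture per strain were compared on 2-colour Agilent arrays, both on 1 slide. Per the file headers, the authors measured spots with Agilent Feature Extraction 10.7.3.1, and the deposited processed signals are intensity values after background subtraction and a linear scaling of each dye. The deposited log10 ratios equalled Cy5 over Cy3 of these signals to within 3.91e-07. The sources used here do not give the build behind the tile numbering. The log2 ratio of processed Cy5 over Cy3 was centred on each array's median over 41240 chromosome tiles, after 11 flagged ones were left out, and no loess or quantile step was applied. Genes and GC content came from RefSeq ASM294v3, placed by 1 offset per arm (-1780 to 4370 bp in the arms of chromosomes I and II) at which reference GC best followed input signal (r = 0.58 to 0.60). The same search over a belt alone differed by at most 60 bp. Regions were runs of at least 3 tiles with a smoothed log2 ratio (500 bp either side) of at least 1, merged when under 1000 bp apart, and called 2-fold from a mean difference of 1. Region caller and offset search were tested on simulated data. Python 3.11.15 (numpy 2.4.6, pandas 2.3.3, statsmodels 0.14.6) and limma 3.58.1 in R 4.3.3 were used.

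The number of arrays limits the precision, with 1 per strain. Regions named were, per belt, the highest on each array and the most negative and most positive of at least 5 tiles, with the longest run below 0 on both. Genes named were those at such summits, members of lists by product text, those past 2-fold, and the other regions and genes described, which were added after their values were seen. Members and lists were chosen with earlier results of these data known. The normexp alternative used median spot intensity.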

Additional observations from a re-analysis of the deposited data

How the results depend on the processing

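No paired analysis was possible because each strain had 1 array, so no replicate could be left out either. There were 11 alternative settings for all results and 4 more for regions. Of 240 comparisons of a main result with an alternative, 198 kept their direction and stayed within the spread over windows, the binomial interval or 1.5 times the count, 34 moved and 8 changed sign. The spread over windows is a wide limit. For the gap between intergenic and coding tiles in wild-type it was 1.11, and the fall of that gap to 0.31 after GC correction lay within it. The binomial interval takes neighbouring tiles of 1 array as independent. The count of 198 is thus no measure of precision. The median difference over the belts stayed below 0 throughout.

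Centring on the mode moved every difference alike, since the mode lay at -0.43 in wild-type and 0.11 in sap1-1, and took the median over all tiles from -0.12 to -0.66. It put the belts at -0.75, with I left at -0.59, I right at -0.83, II left at -0.84 and II right at -0.66. Then 81.5% of belt tiles were lower, 456 at least 2-fold lower and 44 at least 2-fold higher. With it 6 wild-type regions were shared, and 7 union regions were 2-fold lower and 1 higher.

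Among the main results, changes of sign touched medians near 0. Differences of single regions and genes named above also crossed 0 over the settings run. The region at 130200 to 131699 of chromosome I ranged from -0.03 to 0.84, and that at 5469600 to 5472299 from -0.36 to 0.28. The gene SPAC11D3.18c ranged from -0.14 to 0.46, and abc3, amf1 and SPBC1683.12 crossed 0 as well. The wild-type median (0.01) became -0.13 at 110 to 190 kb, -0.0183 over the mean input, -0.0103 after GC correction and -0.00743 after normexp. The difference of I left became 0.00982 after normexp, 0.0799 after quantile scaling and 0.0352 after loess, and that of II right 0.0201 after quantile scaling. Lower tiles made up 53.8% after quantile scaling and 55.1% after loess, which left 135 tiles 2-fold lower.

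Region counts were the least stable. A threshold of 1.5 left 9 wild-type regions, 8 of them shared, and smoothing over 1000 bp left 10. The sap1-1 count was 11 at 110 to 190 kb. The 1 union region 2-fold lower became 2 over the mean input, after centring on the arms, at a threshold of 0.75 and after loess, and 0 after GC correction, at a threshold of 1.5 and with wider smoothing. The 2 that were 2-fold higher became 0 at 110 to 190 kb and after GC correction, 1 over the mean input, after centring on the arms, after normexp, at a threshold of 1.5 and with wider smoothing, 4 with the stretch outside the rule and 7 after loess. The causes were not tested. Over fixed intervals, the difference at utp6 was -0.97 or lower and that at adn2 was 1.60 or higher under every setting run.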
